A study of Mus musculus with 16 samples.

Results

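The 10 genes described here are the NR4A nuclear receptors *Nr4a1*, *Nr4a2* and *Nr4a3* and 7 immediate early genes, *Fos*, *Fosb*, *Jun*, *Junb*, *Egr1*, *Egr2* and *Ier2*. They were taken by symbol from the 26382 genes of a bulk RNA-sequencing table of mouse hamstring muscle, and all 10 passed the filter on low values that left 16414 genes for testing. *Nr4a2* was chosen by its measured level, which set PBS-only mice apart from the PBS legs of HRS-injected mice, and the others by their family. That contrast is therefore described below without a p-value for any of the 10 genes.

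Immediate early genes are switched on within minutes of a stimulus, without new protein synthesis, by kinase and calcium signals that act on transcription factors such as CREB, SRF and MEF2 already present in the cell. Most of them encode transcription factors themselves, and their transcripts are short-lived. The NR4A proteins (NUR77, NURR1 and NOR1) are orphan nuclear receptors whose activity is set mainly by how much of them is made. In skeletal muscle they respond to contraction and to adrenergic signals and are linked to genes of glucose and lipid use, whereas in T cells and macrophages they are induced by activation.

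The 16 libraries came from 9 female C57BL/6 mice of 8 to 10 weeks, sampled on day 14 after an injection of 100 µL in all, 50 µL per side, into the hamstrings. In 5 mice (m862 to m866) the left leg was labelled as injected with HRS, recombinant murine histidyl-tRNA synthetase or Jo-1 (an autoantigen of human myositis) at 3 to 5 mg/mL, and the right leg as injected with PBS. These are the HRS legs and the contralateral PBS legs, 5 libraries each. The study's methods speak of bilateral injection, whereas the titles and treatment labels separate the legs. The PBS-only mice were 2 animals (m867 and m868) with PBS in both legs, giving 4 libraries that are not 4 independent animals. The HRS-MBP group held 1 library from each of 2 mice (m860 and m861), with no leg given. Their titles name an MA-MBP fusion protein at 2 to 3 mg/mL, while their treatment label reads HRS at 3 to 5 mg/mL. The fusion is read here as HRS with maltose-binding protein, which the titles do not spell out. The labels name no adjuvant, transgene or deletion for any group, and 3 sequencing platforms were named without saying which library was run on which, so platform and treatment cannot be told apart.

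Values are normalized counts, with each library scaled by the authors. The implied depth, from the value of a single read, lay between 8.60 M reads (M, 10 to the power 6; right leg of m868) and 73.9 M, and the 160 values of these genes rested on about 4 to 11081 reads, each value divided by that of 1 read. Muscle identity was clear, since all 8 fibre markers were detected and their sum was 109708 to 175885 in the contralateral PBS legs and 134945 to 166650 in the PBS-only mice. It was 38685 to 153062 in the HRS legs and 61810 to 62555 in HRS-MBP. The sum of 3 leukocyte markers went the other way, from 19.3 to 45.4 in contralateral PBS legs and 15.9 to 37.5 in PBS-only mice to 192 to 849 in HRS legs and 721 to 848 in HRS-MBP. The HRS leg of m866 stood apart from the other HRS legs, with the highest fibre sum, the lowest leukocyte sum and mitochondrial transcripts at 11.1% of the total against 3.41% to 6.29%. Its fibre sum was also above the 109708 of its own contralateral leg, unlike in the other 4 mice. In bulk tissue, fewer cells of a type and less RNA per cell cannot be told apart, and this holds for every value below.

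Positions are given in GRCm38, the build that the table's coordinates match. Those of the NR4A family are *Nr4a1* (ENSMUSG00000023034.7, chr15:101254269-101274795, plus strand), *Nr4a2* (ENSMUSG00000026826.13, chr2:57106830-57124003, minus strand) and *Nr4a3* (ENSMUSG00000028341.9, chr4:48045153-48086447, plus strand). The AP-1 genes are *Fos* (ENSMUSG00000021250.13, chr12:85473890-85477273, plus strand), *Fosb* (ENSMUSG00000003545.3, chr7:19302696-19310051, minus strand), *Jun* (ENSMUSG00000052684.4, chr4:95049034-95052222, minus strand) and *Junb* (ENSMUSG00000052837.6, chr8:84976910-84978718, minus strand). *Egr2* (ENSMUSG00000037868.15) lies at chr10:67535475-67542188 on the plus strand and *Ier2* (ENSMUSG00000053560.4) at chr8:84661331-84662854 on the minus strand, and *Egr1* is placed further below. All 10 are annotated as protein coding.

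Promoter sequence was available from RefSeq (GRCm38.p6) for 8 of the 10 genes, and the 250 bases before the RefSeq start site were searched. *Egr2* has 5 RefSeq promoters, of which the one nearest the table's start was searched and the others were not. The windows are shown for *Nr4a1* and *Nr4a2*, the NR4A genes that the values below dwell on, and for an AP-1 gene of each family, *Fos* and *Junb*. They are read 5′ to 3′ on the strand of the gene, at chr15:101266596-101266845 (plus) for *Nr4a1*, chr2:57124004-57124253 (minus) for *Nr4a2*, chr12:85473640-85473889 (plus) for *Fos* and chr8:84978749-84978998 (minus) for *Junb*. Capitals mark matches to the half-site of the cAMP response element (CRE, bound by CREB), to the EGR site or to the TATA box.
Nr4a1: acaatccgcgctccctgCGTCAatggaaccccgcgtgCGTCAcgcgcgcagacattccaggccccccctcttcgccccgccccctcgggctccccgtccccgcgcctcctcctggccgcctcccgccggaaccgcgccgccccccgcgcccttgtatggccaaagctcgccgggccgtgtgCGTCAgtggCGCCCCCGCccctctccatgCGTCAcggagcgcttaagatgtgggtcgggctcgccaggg
Nr4a2: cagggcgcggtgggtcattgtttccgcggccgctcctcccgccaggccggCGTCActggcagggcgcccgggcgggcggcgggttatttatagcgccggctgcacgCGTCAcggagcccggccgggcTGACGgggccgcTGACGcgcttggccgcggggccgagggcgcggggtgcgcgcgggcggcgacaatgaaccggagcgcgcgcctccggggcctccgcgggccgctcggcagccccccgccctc
Fos: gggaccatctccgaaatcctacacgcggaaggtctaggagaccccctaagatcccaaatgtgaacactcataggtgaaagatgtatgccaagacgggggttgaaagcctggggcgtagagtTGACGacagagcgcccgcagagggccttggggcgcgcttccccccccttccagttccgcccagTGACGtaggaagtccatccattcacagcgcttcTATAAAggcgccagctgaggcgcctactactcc
Junb: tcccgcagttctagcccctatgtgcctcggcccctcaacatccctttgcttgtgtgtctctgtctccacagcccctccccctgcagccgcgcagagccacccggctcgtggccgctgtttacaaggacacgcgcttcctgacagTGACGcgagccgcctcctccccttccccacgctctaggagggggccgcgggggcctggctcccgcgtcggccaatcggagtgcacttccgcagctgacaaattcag

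The window of *Nr4a1* precedes a start 12577 bases inside the gene as the table gives it, while those of the other 7 genes lie within 152 bases of the table's start. The CRE half-site (TGACG or CGTCA, which covers both strands and is also contained in a full CRE) was present in 6 of the 8 windows, against 17.8% of the 32851 mouse promoter windows of the same length. *Nr4a1*, *Nr4a2* and *Nr4a3* held 4 half-sites each, a number reached or passed by 0.137% of all windows, *Fos* held 2, and *Fosb* and *Junb* 1 each. The windows of the NR4A genes were 74.4%, 80% and 63.6% G or C. No share over all windows given here was matched for base content. The EGR site (GCGTGGGCG or GCGGGGGCG on either strand) was found in the windows of *Nr4a1* and *Fosb*, 2 of 8 against 3.06% of all windows, and the TATA box (TATAAA, on the gene's strand) in that of *Fos* alone, against 7.59%. None of the 8 windows held the full CRE (TGACGTCA, 1.55% of all windows), an AP-1 site (TGAGTCA or TGACTCA, 4.46%), the NBRE bound by NR4A monomers (AAAGGTCA on either strand, 1.34%) or the CArG box of SRF (1.47%). A match describes the letters only, and the RNA data do not show which protein was bound.

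Because transcript lengths differ, levels were compared between genes per kilobase of exon. In the PBS-only mice *Nr4a1* was the most abundant member, with a median of 78.5 normalized counts per kilobase (53.2 to 90.0), followed by *Jun* at 48.4 (41.4 to 63.0), and these ranges overlapped. *Fos* at 8.74, *Junb* at 8.17 and *Ier2* at 6.81 formed a middle tier, in which *Fos* overlapped both of the others and *Junb* did not overlap *Ier2*. *Egr1* (2.60), *Nr4a2* (1.89), *Nr4a3* (0.995), *Egr2* (0.433) and *Fosb* (0.395) were the scarcest, with overlap between *Egr1* and *Nr4a2* and between *Egr2* and *Fosb* but not between the other neighbours. The order was different with HRS, where *Jun* (36.2 per kilobase, 29.6 to 51.9) and *Junb* (33.8, 15.7 to 58.1) led and overlapped, and *Nr4a1* followed at 18.5 (11.1 to 68.1). *Nr4a2* had the lowest median in the HRS legs, at 0.653 per kilobase, but its range (0.532 to 1.02) lay within that of *Fosb* (0.190 to 1.02, median 0.684).

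**Figure D1:**
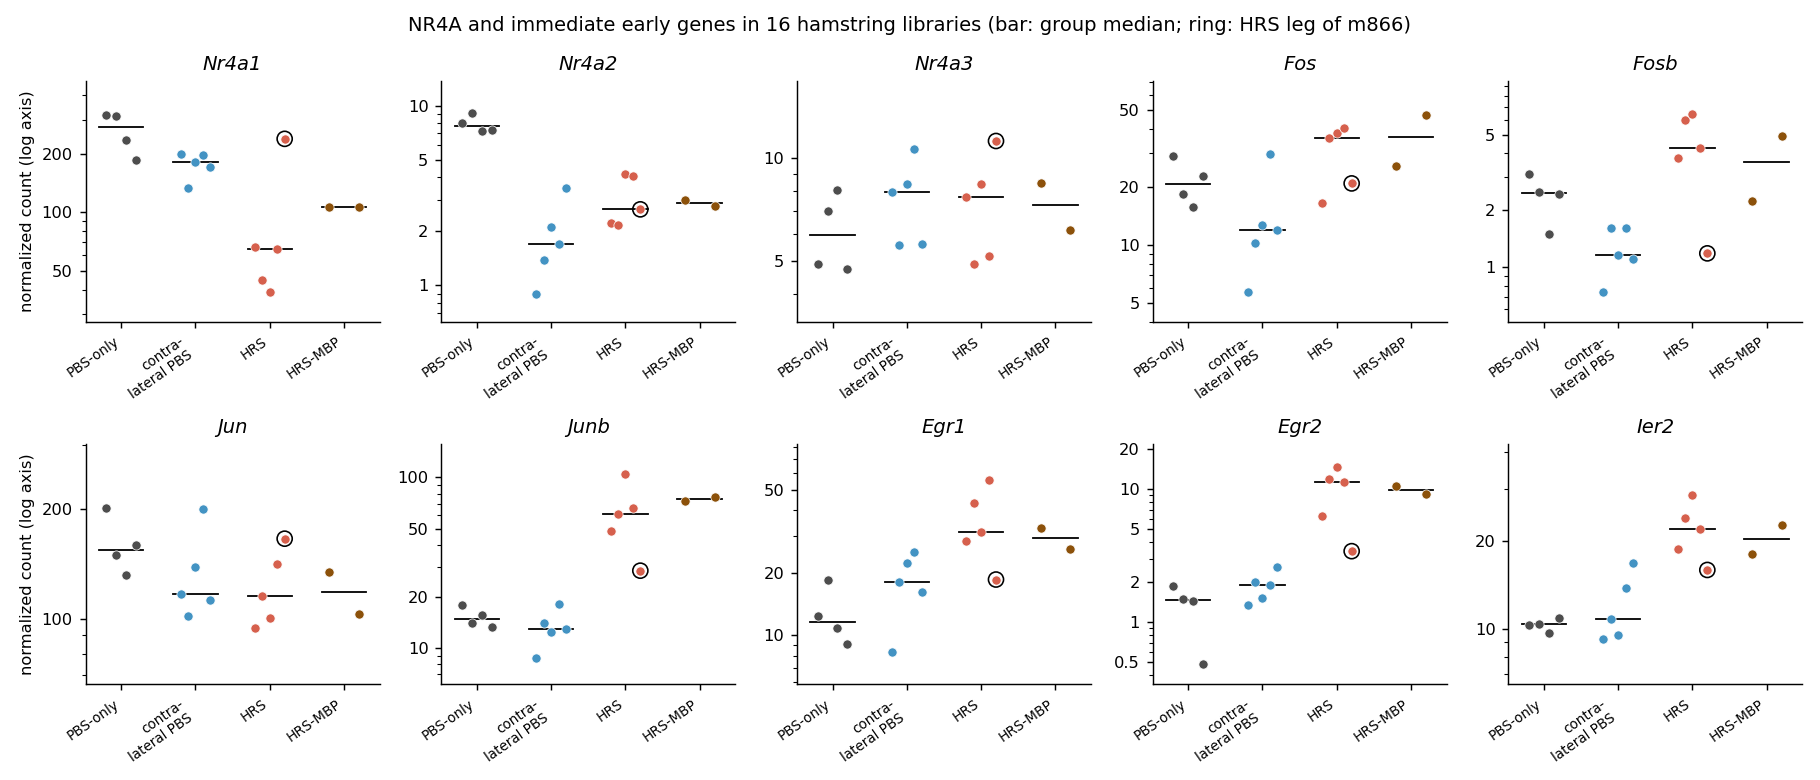
Normalized counts (log axis) of the 10 genes in each of the 16 libraries, by group; each point is a library, bars are group medians and a ring marks the HRS leg of m866. *Junb* was at 28.4 or higher in all HRS and HRS-MBP libraries and at 18.1 or lower in all PBS libraries, whereas *Nr4a2* was at 7.24 or higher in the PBS-only libraries and at 4.14 or lower everywhere else.

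The HRS legs were first compared as a group with the opposite, PBS-injected legs of these 5 mice, in a fit without a term for the mouse. Differences within each mouse are given further below. *Junb*, *Egr2*, *Fosb* and *Fos* were higher in the HRS legs and *Nr4a1* was lower, with fold changes of 4.27, 3.87, 2.53, 2.30 and, for *Nr4a1*, 2.44 in favour of the PBS legs. These 5 of 10 genes passed limma's test at an adjusted p below 0.05 with an absolute log2 fold change above 1, where 23.2% of the 16414 tested genes passed, 16.9% as higher and 6.27% as lower. The 1029 lower genes became 556 without the HRS leg of m864, 1598 without that of m866 and 1632 under quantile normalization. *Egr1* and *Ier2* passed on p but not on size, and *Jun* and *Nr4a3* showed no detectable difference. The fold changes are on the scale of log2(normalized count + 0.5), which understates those of the scarcest genes.

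The AP-1 genes encode the subunits of a dimeric transcription factor, with FOS proteins pairing with JUN proteins. *Junb*, a subunit that often restrains JUN and has its own roles in T helper cells and muscle mass, was at 48.7, 61.1, 105, 66.1 and 28.4 normalized counts in the HRS legs of m862 to m866 and at 8.72, 14.1, 12.5, 18.1 and 12.9 in their PBS legs. It was at 14.0 and 17.9 in the right and left legs of m867, at 13.3 and 15.5 in those of m868, and at 72.8 and 76.9 in HRS-MBP. Every HRS and HRS-MBP library was above every PBS library, and the lowest HRS leg was that of m866. The log2 difference from the contralateral legs was 2.09 (standard error 0.261, adjusted p = 2.09e-05, limma), the largest among the 10 genes, and without both legs of m866 it was 2.34. *Junb* and *Egr2* were the members whose groups did not overlap, which was so for 18.3% of tested genes as higher and for 3.19% as lower. For both, an exact two-sided permutation test gave p = 0.00794, the smallest that 5 against 5 libraries allow.

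*Fos*, the classic partner of JUN, was at 16.5, 35.8, 38.1, 40.4 and 20.8 in the HRS legs of m862 to m866 and at 5.70, 10.3, 12.7, 29.6 and 11.9 in the PBS legs. In PBS-only mice it was at 18.3 and 28.9 (m867) and 22.8 and 15.8 (m868), and HRS-MBP held 25.7 and 47.1. The HRS and contralateral groups overlapped through the contralateral leg of m865, and the PBS-only legs lay across and just below the lower part of the HRS range. The log2 difference from the contralateral legs was 1.20 (standard error 0.357, adjusted p = 0.00938, limma), and without the contralateral leg of m862, the lowest, it was 0.94 and no longer past the size threshold.

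*Fosb*, a close relative of *Fos*, was scarcer, at 3.76, 6.00, 6.39, 4.27 and 1.18 in the HRS legs and 0.737, 1.62, 1.15, 1.62 and 1.10 in the contralateral legs. The PBS-only legs held 2.50 and 3.11 (m867) and 2.43 and 1.499 (m868), and HRS-MBP 2.24 and 4.94. The HRS legs of m862 to m865 were above all contralateral legs, while that of m866 was among them. The log2 difference of 1.34 (standard error 0.334, adjusted p = 0.00338, limma) became 1.68 without the HRS leg of m866 (adjusted p = 2.03e-05) and fell under the size threshold with a pseudocount of 2 (0.89) or quantile normalization (0.93).

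*Jun* did not follow the other AP-1 genes. Its HRS legs held 94.2, 116, 100.2, 141 and 166 normalized counts and its contralateral legs 117, 101, 139, 199 and 112. PBS-only mice were at 149.5 and 201 (m867) and 159 and 132 (m868), and HRS-MBP at 134 and 103. All groups overlapped, and the log2 difference between HRS and contralateral legs was -0.11 with a 95% confidence interval of -0.52 to 0.31 (adjusted p = 0.649, limma), a sign that turned to 0.06 under quantile normalization. A fold above 2 in either direction was thus outside the interval.

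The EGR genes encode zinc-finger factors, and EGR2 is also known for its part in T cell tolerance. *Egr2* was at 6.32, 12.0, 14.7, 11.5 and 3.43 in the HRS legs of m862 to m866 and at 1.35, 2.01, 1.52, 1.91 and 2.61 in the contralateral legs. The PBS-only legs held 1.51 and 1.86 (m867) and 0.485 and 1.43 (m868), the value of 0.485 resting on 4 reads, and HRS-MBP held 10.6 and 9.21. As for *Junb*, no HRS or HRS-MBP library overlapped a PBS library, and m866 gave the lowest HRS value. The log2 difference from the contralateral legs was 1.95 (standard error 0.328, adjusted p = 2.51e-04, limma), and without both legs of m866 it was 2.36.

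*Egr1* (ENSMUSG00000038418.7, chr18:34859823-34864984, plus strand), a rapid sensor of mitogen signals, was at 28.5, 43.3, 31.4, 55.5 and 18.5 in the HRS legs and 8.30, 17.9, 22.2, 25.3 and 16.2 in the contralateral legs. It was at 18.4 and 12.4 in m867, 9.10 and 10.9 in m868, and 32.7 and 26.1 in HRS-MBP. The m866 HRS leg fell among the contralateral legs, and the others were above all of them. Its log2 difference of 0.95 (standard error 0.304, adjusted p = 0.0136, limma) was just under the size threshold, and it passed, at 1.01 to 1.16, without the HRS leg of m862 or m866 or the contralateral leg of m864 or m865.

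*Ier2*, a small nuclear protein of the early growth response, was at 18.7, 23.8, 28.6, 21.9 and 15.9 in the HRS legs and 9.23, 10.8, 9.56, 13.8 and 16.8 in the contralateral legs. PBS-only legs were tightly grouped, at 10.4 and 10.4 in m867 and 10.9 and 9.71 in m868, and HRS-MBP was at 18.0 and 22.6. Only the legs of m866 overlapped, its contralateral leg being the highest of the PBS libraries. The log2 difference was 0.84 (standard error 0.172, adjusted p = 0.00109, limma), below the size threshold, and it became 1.07 without both legs of m866.

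*Nr4a1*, which encodes NUR77, ran in the opposite direction. It was at 66.3, 45.0, 39.0, 65.0 and 239 normalized counts in the HRS legs of m862 to m866 and at 199, 133, 181, 196 and 171 in the contralateral legs. The PBS-only legs held 315 and 316 (m867) and 187 and 236 (m868), and the HRS-MBP libraries 107.1 and 106.9. The HRS legs of m862 to m865 were below every PBS library, whereas that of m866 was above all contralateral legs and among the PBS-only legs. The log2 difference from the contralateral legs was -1.29 (standard error 0.359, adjusted p = 0.00663, limma), and without the HRS leg of m866 it was -1.72 (adjusted p = 1.46e-06).

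*Nr4a3*, which encodes NOR1, did not move with *Nr4a1*. It was at 7.72, 4.89, 8.40, 5.16 and 11.2 in the HRS legs and 7.98, 5.55, 8.41, 10.7 and 5.60 in the contralateral legs. The PBS-only legs held 7.02 and 4.89 (m867) and 4.73 and 8.08 (m868), and HRS-MBP 8.45 and 6.16. The groups overlapped throughout, and the log2 difference between HRS and contralateral legs was -0.05 with a 95% confidence interval of -0.55 to 0.45 (adjusted p = 0.865, limma), turning to 0.08 without the HRS leg of m863.

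*Nr4a2*, which encodes NURR1, was the scarce member with the widest gap between PBS groups. It was at 2.23, 2.16, 4.14, 4.08 and 2.65 normalized counts in the HRS legs and at 0.897, 1.38, 2.12, 1.71 and 3.50 in the contralateral legs, on 28 to 232 reads. PBS-only mice were at 9.12 and 8.05 (m867) and 7.28 and 7.24 (m868), and HRS-MBP at 2.99 and 2.76. In both PBS-only mice both legs lay above every library of the mice that had received HRS. The 95% Poisson interval, which covers counting error only, was 5.95 to 8.71 in the lowest PBS-only leg and 3.63 to 4.71 in the highest other library, and nothing is read from it because these libraries chose the gene. Between HRS and contralateral legs the log2 difference was 0.60, which is given as a description because the contralateral legs had served to choose the gene.

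Within each mouse, 5 of the 7 immediate early genes kept to a single direction. *Fos*, *Fosb*, *Junb*, *Egr1* and *Egr2* were above their contralateral value in 5 of 5 mice, as were 26.3% of tested genes, and none of the 10 was below it in all 5, as were 8.97%. The exact two-sided sign-flip test over 5 mice gave p = 0.063 for each of the 5 genes, the smallest it allows. The log2 difference between the legs of a mouse ranged from 1.11 to 3.03 for *Junb*, from 0.34 to 2.91 for *Egr2*, and from 0.07 to 2.06 for *Fosb*. In each of these ranges the low end was m866 and the high end m864. The range of *Fos* ran instead from 0.44 in m865 to 1.76 in m863. That of *Egr1* ran from 0.19 in m866 to 1.72 in m862, with m864 at 0.49. *Ier2* and *Nr4a2* were higher in 4 of 5 mice and *Nr4a1* was lower in 4 of 5, by 1.55 to 2.20 on the log2 scale, m866 being the exception in all 3 genes. *Jun* was higher in 2 mice and lower in 3. Among the HRS legs, m866 had the smallest leukocyte sum, 192, and m864 the largest, 849.

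**Figure D2:**
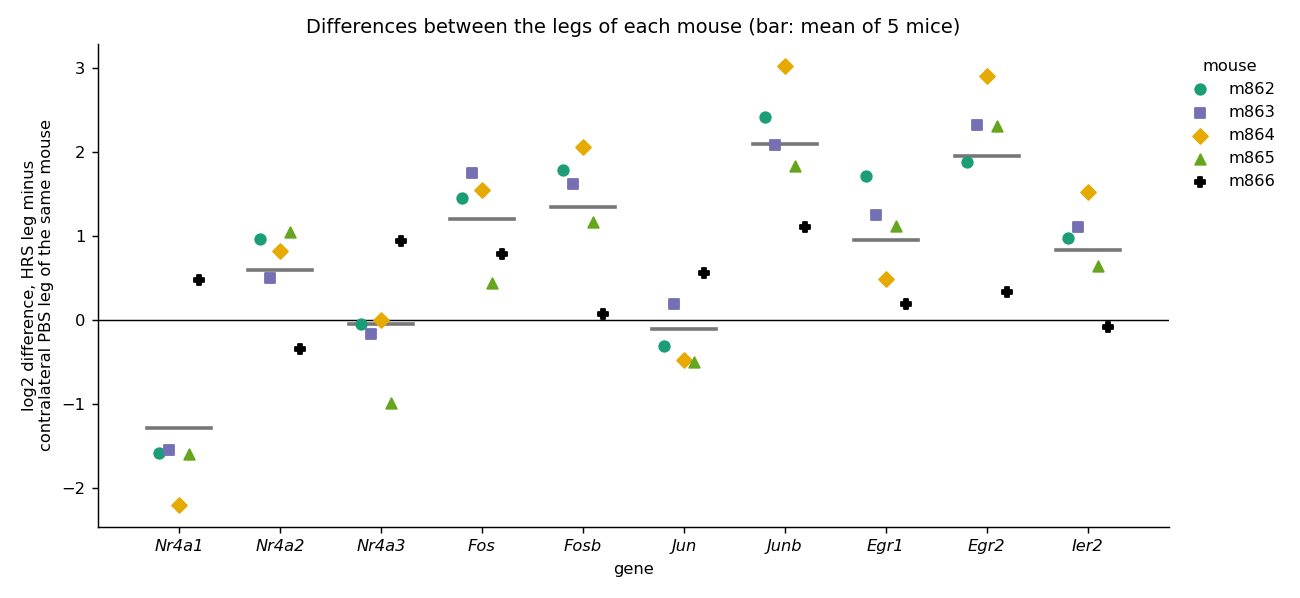
Log2 difference between the HRS leg and the contralateral PBS leg of the same mouse for each gene; symbols are the 5 mice and grey bars their mean. Points of *Fos*, *Fosb*, *Junb*, *Egr1* and *Egr2* all lie above 0, and mouse m866 (black) lies on the other side of 0 from the other 4 mice for *Nr4a1*, *Nr4a2*, *Nr4a3* and *Ier2*.

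Against the PBS-only mice, which had received no HRS in either leg, *Egr2* was 5.23-fold, *Junb* 3.67-fold, *Egr1* 2.63-fold and *Ier2* 2.02-fold higher in the HRS legs, and *Nr4a1* was 3.60-fold lower. The fit passed 6 of the 10 genes, these and *Nr4a2*, where 24.8% of tested genes passed, 18.9% as higher and 5.87% as lower. The 963 lower genes became 586 without the HRS leg of m864, 1524 without that of m866 and 1807 under quantile normalization. The call of *Nr4a2*, 2.43-fold lower, is not read as a result because its PBS-only libraries had served to choose it. The log2 differences were 2.39 for *Egr2* (standard error 0.348, adjusted p = 7.30e-05), 1.88 for *Junb* (0.277, adjusted p = 8.17e-05), 1.40 for *Egr1* (0.322, adjusted p = 0.00218) and -1.85 for *Nr4a1* (0.381, adjusted p = 0.00105), all by limma. Without the HRS leg of m866 that of *Nr4a1* was -2.28. The difference for *Ier2* was 1.01 (standard error 0.182, adjusted p = 3.90e-04), close enough to the size threshold that it was 0.88 after median-ratio rescaling and 0.69 after quantile normalization, and 0.91 to 0.98 without the HRS leg of m863 or m864 or the left leg of m868. The libraries of *Junb*, *Egr1*, *Egr2* and *Ier2* did not overlap, with p = 0.0159 for each in the exact two-sided permutation test, the smallest for 5 against 4. No overlap was seen for 26.6% of tested genes in this direction and for 5.18% in the other, where *Nr4a2* lay. Both this test and limma count the 4 legs of the 2 PBS-only mice as separate libraries. Their p-values therefore do not measure the spread between PBS-only mice.

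*Fos* and *Fosb* were not called against the PBS-only mice. Their log2 differences were 0.44 (95% confidence interval -0.36 to 1.25, adjusted p = 0.321) and 0.62 (-0.13 to 1.37, adjusted p = 0.140) by limma, and without the HRS leg of m866 that of *Fosb* was 0.96 (adjusted p = 0.00369). Whether these differences were smaller than those against the contralateral legs was not tested, since that is the contrast that chose *Nr4a2*. *Jun* was at -0.39 (-0.83 to 0.04) and *Nr4a3* at 0.23 (-0.31 to 0.76), the latter turning to -0.27 under quantile normalization. The 2 comparisons share the HRS legs and their values are therefore not independent.

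**Figure D3:**
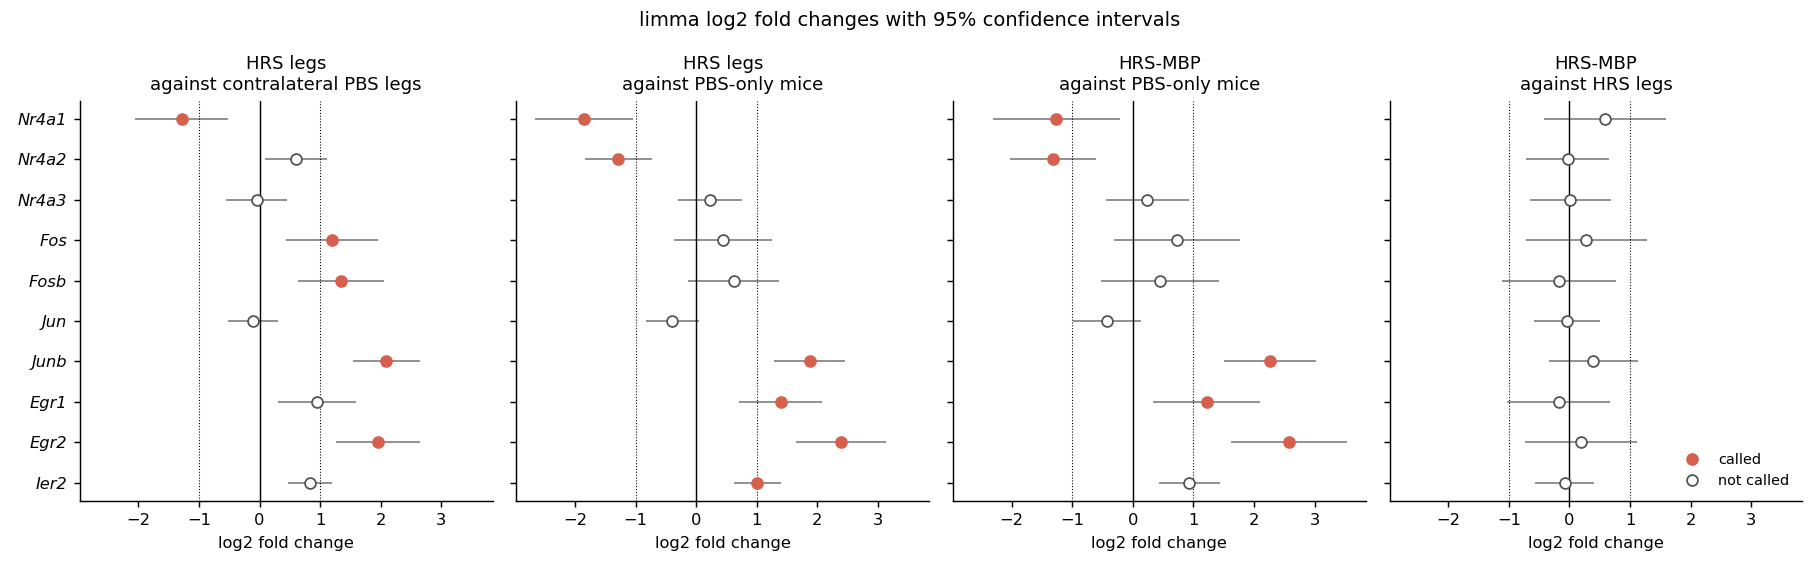
Log2 fold changes of the 10 genes with 95% confidence intervals from limma in 4 comparisons; red points passed the test (adjusted p below 0.05 and beyond the dotted lines at 1 and -1), open points did not. *Junb* and *Egr2* lie between 1.88 and 2.58 in the 3 comparisons with PBS, and no gene passed between HRS-MBP and HRS legs. The red points of *Nr4a2*, for HRS legs and for HRS-MBP against PBS-only mice, rest on the PBS-only libraries by which it was chosen.

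The HRS-MBP libraries were compared with the PBS-only mice and with the HRS legs, to see whether the fusion protein gave the same picture. Against PBS-only mice *Egr2* was 5.99-fold, *Junb* 4.83-fold and *Egr1* 2.33-fold higher and *Nr4a1* 2.40-fold lower. With *Nr4a2* (2.49-fold lower, not read as a result for the reason above), 5 of 10 genes passed, where 30.9% of tested genes did, 20.7% as higher and 10.2% as lower (1671 genes, and 2800 under quantile normalization). The log2 differences were 2.58 for *Egr2* (standard error 0.449, adjusted p = 2.93e-04), 2.27 for *Junb* (0.358, adjusted p = 1.28e-04), 1.22 for *Egr1* (0.416, adjusted p = 0.0213) and -1.26 for *Nr4a1* (0.492, adjusted p = 0.0391) by limma. The call of *Nr4a1* was lost without either HRS-MBP library, either leg of m867 or the left leg of m868 (adjusted p 0.0537 to 0.137 by limma), and that of *Egr1* without either HRS-MBP library or the right leg of m868 (0.0504 to 0.138). With the legs of a PBS-only mouse averaged, both calls were lost (adjusted p = 0.0967 for *Nr4a1* and 0.0607 for *Egr1*), as they were under quantile normalization (0.0579 and 0.0600). That of *Nr4a1* was also lost with no filter on low values (adjusted p = 0.0536), and that of *Egr1* without both legs of m868 (0.93, adjusted p = 0.130). *Ier2*, at 0.93, was under the size threshold. The libraries of *Junb*, *Egr1*, *Egr2* and *Ier2* lay above those of the PBS-only mice without overlap, as for 39.8% of tested genes, and those of *Nr4a1* and *Nr4a2* below, as for 30.6%. With 2 libraries against 4, the exact permutation test cannot go below p = 0.133.

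Between HRS-MBP and HRS legs none of the 10 genes was called by limma, where 0.463% of tested genes were called, 0.396% as higher and 0.067% as lower. None of the 10 had an unadjusted p below 0.05, against 2371 of the 16414 tested genes. The libraries of all 10 genes overlapped, whereas 7.1% of tested genes lay wholly higher and 8.4% wholly lower in HRS-MBP. The log2 difference of *Nr4a2*, -0.03, came from none of the libraries that chose the gene. Its 95% confidence interval, -0.71 to 0.65, took its spread from all 4 groups, and so in part from those libraries. The intervals were wide for 2 against 5 libraries, for instance -0.34 to 1.13 for *Junb* and -0.73 to 1.12 for *Egr2*, so that 2-fold differences lay within both. *Nr4a1* was at 0.59 (-0.42 to 1.60, adjusted p = 0.588), and without the HRS leg of m866 it was 1.02 and called (adjusted p = 0.0465), HRS-MBP being higher than the 4 remaining HRS legs.

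The contrast that chose *Nr4a2* set the contralateral PBS legs against the PBS-only mice, both of which had received PBS in the sampled leg. *Nr4a2* averaged 1.92 ± 0.990 normalized counts (SD, n = 5) in the contralateral legs and 7.92 ± 0.884 (SD, n = 4 legs of 2 mice) in the PBS-only mice, a log2 difference of -1.88. That gap is the reason for its choice, so no p is given and nothing is read from it. The thresholds of the rule held 1 gene (0.00609% of those tested), and 0 to 3 genes under the alternatives tried. The next genes by the same fit were *Gm50230* at -0.999, *Gins2* at 1.12 and *Bcl6b* at -0.98, each outside a threshold of size or of adjusted p. At this contrast the fit called no gene as higher (0%). The other members were at -0.76 (*Fos*), -0.72 (*Fosb*), -0.56 (*Nr4a1*), -0.29 (*Jun*), -0.22 (*Junb*), 0.17 (*Ier2*), 0.28 (*Nr4a3*), 0.43 (*Egr2*) and 0.44 (*Egr1*) on the log2 scale. In all 9 of these the groups overlapped, while *Nr4a2* was wholly lower in the contralateral legs, as were 0.274% of tested genes (2.3% were wholly higher). Between the right and left legs of a PBS-only mouse, the 10 members differed by 1.002-fold (*Ier2*) to 1.58-fold (*Fos*) in m867 and by 1.01-fold (*Nr4a2*) to 2.96-fold (*Egr2*, on few reads) in m868.

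The genes whose levels ran most like *Nr4a2* over the 16 libraries were *Apold1* (an endothelial early response gene, Pearson's r = 0.79), *Bcl6b* (0.76), *Slc25a25* (a mitochondrial ATP-Mg carrier, 0.70), *Tbccd1* (0.68) and *Otoa* (0.67). *Slc25a25* averaged 129 normalized counts in PBS-only mice against 36.3 in contralateral legs, 34.8 in HRS legs and 50.4 in HRS-MBP. *Apold1* averaged 8.06 in PBS-only mice against 3.11, 6.40 and 4.14 in the same order of groups, and so was closer to the PBS-only level in the HRS legs than *Slc25a25* was. These correlations are descriptions over libraries that share animals and groups, and they rest on the PBS-only libraries in part. The sum of 4 endothelial markers was 254 to 301 in PBS-only mice, 269 to 321 in contralateral legs, 282 to 332 in HRS legs and, below the HRS legs, 271 to 273 in HRS-MBP, and the part of endothelial content in the level of *Apold1* was not tested.

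Over all 16 libraries the members fell into a block that ran together and others that did not. *Junb* and *Egr2* had a Pearson's r of 0.95 on log2 values, *Egr2* and *Ier2* 0.92, and *Fos* and *Fosb* 0.81, while *Nr4a1* ran against *Egr2* (-0.84) and *Junb* (-0.80). After the group means were subtracted, the same pairs were at 0.82, 0.64, 0.63, -0.61 and -0.72, so libraries of a group also differed along this line. *Jun* was with *Nr4a1* (0.63, and 0.56 after subtraction) and not with *Junb* (-0.35 and -0.10). *Nr4a2* was near 0 with *Junb* (-0.01) over all libraries and at 0.43 after subtraction. Of the 45 pairs, 16 were above 0.5 in each way of computing, and the points share animals, library depth and group size.

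**Figure D4:**
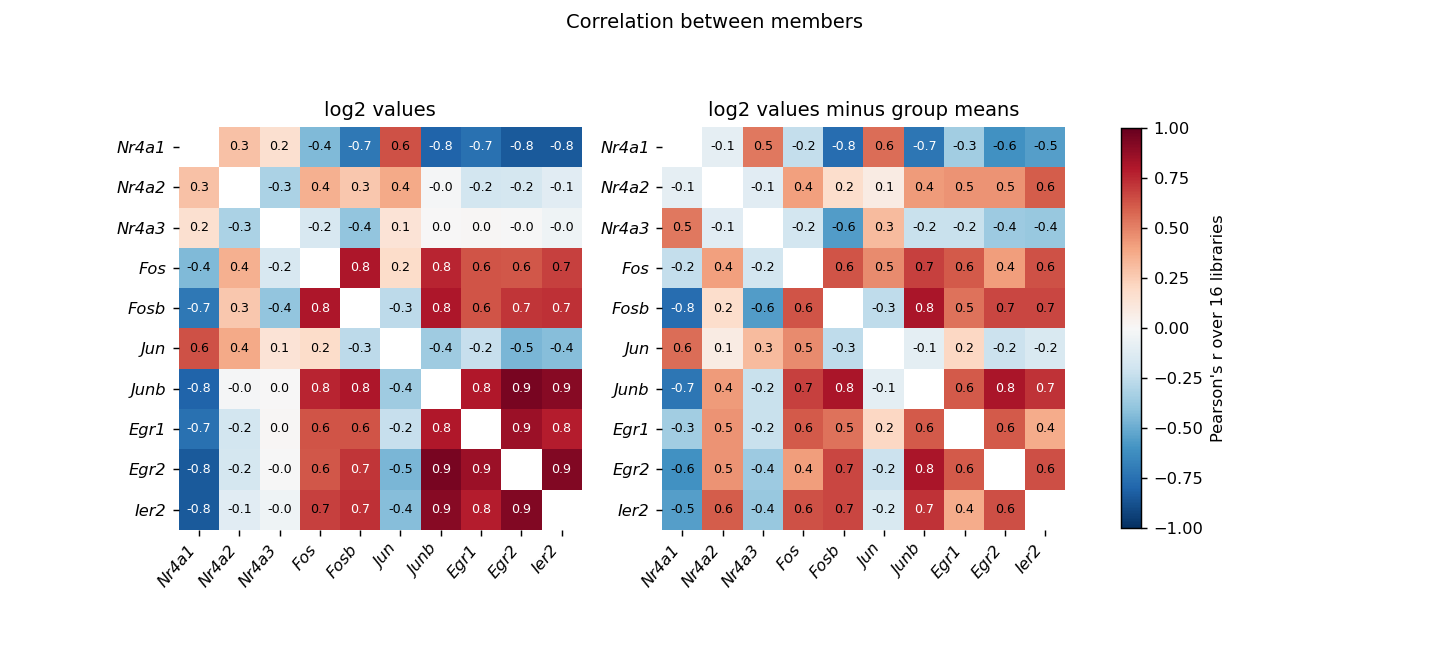
Pearson's r between members over 16 libraries, for log2 values (left) and after subtracting group means (right); red is positive and blue negative. *Junb*, *Egr2*, *Ier2*, *Egr1*, *Fos* and *Fosb* form a red block, and the row of *Nr4a1* is blue against them and red with *Jun*.

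Cell type markers moved with these values. All 3 leukocyte, all 5 macrophage, all 4 neutrophil and all 5 T cell markers passed as higher in HRS against contralateral legs, as did all 5 B and plasma cell markers and 2 of 4 fibroblast markers, beside 16.9% of all tested genes, and no marker of these lists was at 0 in every library. The macrophage sum was 953 to 4833 in HRS legs and 3754 to 4122 in HRS-MBP against 95.2 to 261 and 96.4 to 203 in the PBS groups. The fibroblast sum was 1005 to 9713 in HRS legs, lowest in m866, and 2274 to 5204 in HRS-MBP, against 532 to 1054 and 516 to 903. The B and plasma cell sum was 18.6 to 48.4 and 90.8 to 643, against 1.19 to 5.77 and 0.711 to 1.86. Other sums were lower. That of smooth muscle and pericytes was 307 to 456 in HRS legs and 233 to 286 in HRS-MBP against 442 to 460 and 433 to 504. That of adipocytes had a median of 59.7 and 41.6 against 133 in both PBS groups, with 987 in the contralateral leg of m866. All 3 adipocyte markers were called as lower in HRS against contralateral legs, beside 6.27% of all tested genes. Against PBS-only mice 0 of the 3 were called, in HRS legs as in HRS-MBP. The HRS leg with the lowest leukocyte sum, m866, had the lowest *Junb*, *Egr2*, *Egr1*, *Fosb* and *Ier2* of the HRS legs, and that with the highest sum, m864, had the highest *Junb*, *Egr2*, *Fosb* and *Ier2*. *Nr4a1* was lowest in the HRS leg with the lowest fibre sum (m864) and highest among HRS legs in that with the highest (m866). This order did not hold between the HRS legs of m863 and m865. Nor did it hold in the contralateral legs of m863 and m866, where *Nr4a1* was at 133 and 171 with fibre sums of 173129 and 109708. In HRS-MBP, *Nr4a1* at 107 stood above the HRS legs of m863 and m865 (45.0 and 65.0), whose fibre sums of 65867 and 63070 were close to its own. The part of cell make-up in these differences was not tested.

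**Figure D5:**
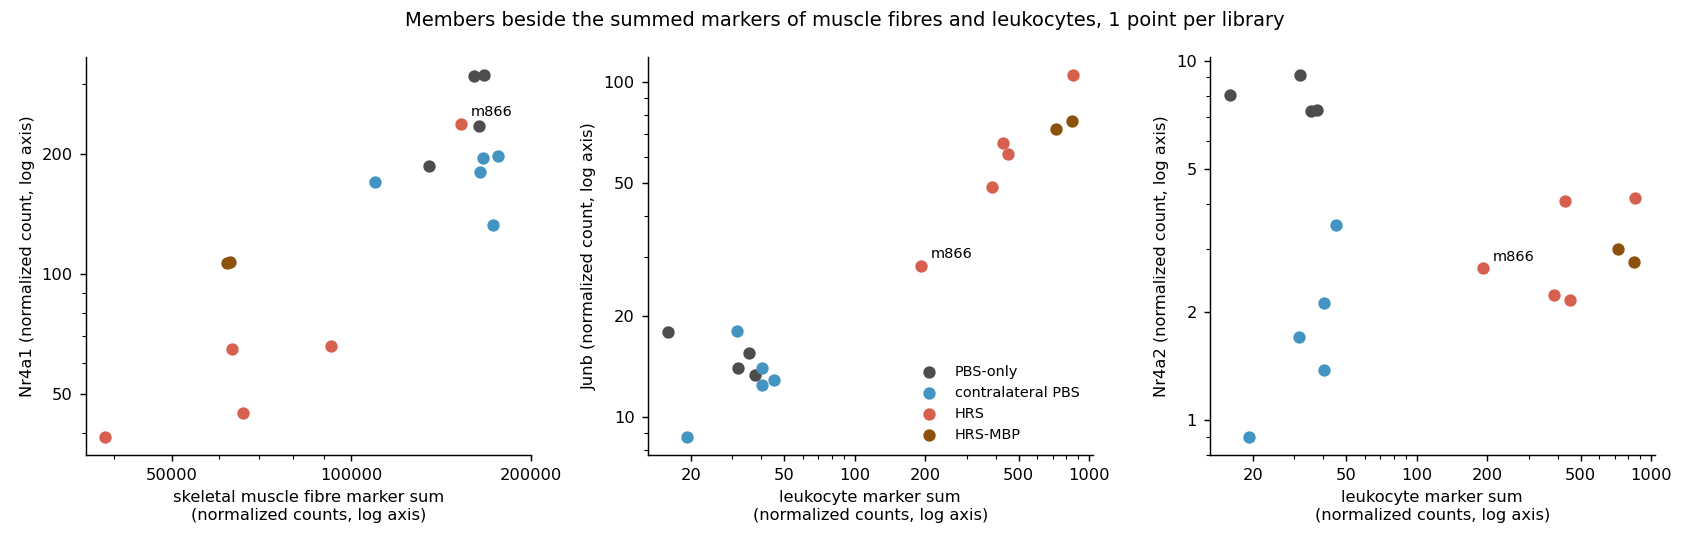
*Nr4a1* against the summed fibre markers, and *Junb* and *Nr4a2* against the summed leukocyte markers, 1 point per library, both axes log. *Junb* lies at 28.4 to 105 where the leukocyte sum is 192 or more, and the PBS-only libraries hold *Nr4a2* at 7.24 to 9.12 at sums of 15.9 to 37.5.

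The other genes of the same pathways were read from lists drawn up around the 10 members. Among 13 tested AP-1 and ATF partners, 5 were called as higher in HRS against contralateral legs and none as lower, with a median log2 difference of 0.83 against 0.08 over all tested genes, of which 16.9% were called as higher and 6.27% as lower. They included *Batf2* (3.23), *Batf* (2.59), *Batf3* (1.74) and *Fosl2* (1.21), of which the BATF proteins are leukocyte partners of JUN proteins, and at the low end *Atf4*, of the integrated stress response, was at -0.60. *Egr3* (1.91) and the EGR co-repressor *Nab2* (1.46) were called among the 3 tested genes of the EGR and NAB list, whose lowest was *Nab1* at 0.72.

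Of 35 other immediate early genes, 12 were called as higher and 1 as lower (16.9% and 6.27% of all tested genes), with a median of 0.53. The extremes were *Rgs1* (2.84), a lymphocyte regulator of G protein signals, and *Homer1* (-1.20), a scaffold protein also used by muscle fibres. Against PBS-only mice the same list had 8 called as higher and 2 as lower (*Per1*, -1.11, a clock gene, and *Homer1*, -1.33), beside 18.9% and 5.87% of all tested genes. Among 17 feedback phosphatases and RNA-decay factors, which end the early response, 6 were higher and 2 lower, from *Dusp2* (1.59), the phosphatase of immune cells, to *Dusp8* (-1.90) and *Dusp10* (-1.14), with a median of 0.05 against 0.08 over all tested genes, where 16.9% were higher and 6.27% lower. The higher ones included *Zfp36* (1.42), whose product tristetraprolin removes early transcripts.

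Of 23 tested upstream regulators (SRF and its partners, CREB, MEF2 and calcineurin), 1 passed on both p and size, *Nfatc4* (1.30, higher), beside 16.9% of all tested genes as higher and 6.27% as lower, and the median was -0.01. Others passed on p but not on size by limma, among them *Ppp3cb* (-0.98, adjusted p = 0.00218), a calcineurin subunit and the lowest of the list. Of the 3 RXR genes, the dimer partners of NUR77 and NURR1, *Rxrg*, the form of skeletal muscle, was lower (-1.23), *Rxra* was at -0.89 and *Rxrb* at -0.43, neither of them called.

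Genes of muscle glucose and lipid use that are linked to NR4A receptors were mostly lower. In HRS against contralateral legs 12 of 15 were called as lower and none as higher, where 6.27% of all tested genes were lower, with a median log2 difference of -1.26, from *Fbp2* (-2.03), the muscle fructose bisphosphatase, to *Prkag3* (-0.08), an AMPK subunit that was not called. *Slc2a4*, the insulin-responsive glucose transporter GLUT4, was at -1.80, and *Lpin1*, of triglyceride synthesis, at -1.65. Against PBS-only mice 11 were lower (5.87% of all tested genes), and in HRS-MBP against PBS-only mice 12 were lower (10.2%). These genes are expressed by muscle fibres, and the 8 fibre markers had a median of -1.05 in the same comparison, 3 of them called as lower, so the part of fibre content in the list's change was not tested. The lists were written with earlier results of these data known.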

How the data were processed

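Hamstring muscle of 9 mice was measured as bulk RNA in 16 libraries (5 HRS legs, 5 contralateral PBS legs, 4 legs of 2 PBS-only mice, 2 HRS-MBP libraries), grouped by the titles and treatment labels. The authors deposited normalized counts per gene, a signal that is never negative and not log-transformed. The libraries carry different scale factors, whose method is not given in the sources used here, nor is strand use in counting, so that overlapping genes are uncertain. The submitters' processing notes name STAR 2.7.8a, limma and the builds mm39 and GRCm39, whereas 99.0% of the 25652 genes matched by symbol and chromosome have the start and end of GENCODE M21 (GRCm38). The table's stop is 1 base past the end, and ends are given here without it. Whole reads were not treated as recovered, because 73.7% to 75.8% of low values per library, and 129 of the 160 member values, were whole multiples of the value of 1 read within 0.02 reads. Read numbers and counting intervals are therefore approximate, and no test used them. All 16 sample columns were used, and no pair of libraries held identical values.

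Tests used limma 3.58.1 in R 4.3.3 (lmFit, then eBayes with trend) on the log2 of the normalized count plus 0.5. The 16414 genes averaging 0.5 or more were fitted with all 4 groups and Benjamini-Hochberg adjustment over all tested genes. A call needed an adjusted p below 0.05 together with a log2 fold change beyond 1 or -1. For a single gene, exact two-sided permutation of libraries and exact sign flips over mice were used as well. Each p measures the spread between these libraries, some of which share an animal. The fit was tested on simulated data before use. Promoters came from RefSeq (GRCm38.p6).

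Legs with the same mouse number are from the same animal, so the numbers pair the samples. Across genes, deviations from the group mean in a mouse's HRS leg and PBS leg correlated at 0.12, 0.16, 0.10, -0.03 and -0.37 in m862 to m866. Their mean was -0.0025, against -0.0068 for an HRS leg and a PBS leg of different mice. The pairing therefore rests on the mouse numbers and not on these correlations.

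The genes named are the 10 members, the highest and lowest of each list in HRS against contralateral legs, and the 5 genes most like *Nr4a2* and *Fos*. Called genes of lists with 5 or fewer calls, and *Dusp10*, *Zfp36*, *Slc2a4*, *Lpin1*, *Per1* and *Rxra*, were named after their values were seen. A few genes that this rule names are not reported here. The members and lists were chosen with earlier results of these data known. Alternatives covered the pseudocount, filter, scaling, mean trend, libraries in the fit, averaging of PBS-only legs, mouse as a block and leaving out each library.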

Additional observations from a re-analysis of the deposited data

How the results depend on the processing

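With mouse as a replicate block, 5 members were called between HRS and contralateral legs, as without it, and no member's call changed; *Nr4a2* was at 0.60 in both. Median-ratio rescaling lowered the all-gene median for HRS against contralateral legs from 0.08 to 0.01 and quantile normalization to -0.16; for HRS and HRS-MBP against PBS-only mice it went from 0.15 and 0.11 to -0.16 and -0.23 under quantile normalization. The share of calls that were higher went from 73.0%, 76.3% and 67.0% in these comparisons to 56.2%, 54.5% and 47.3%. The number of members called between HRS-MBP and PBS-only mice was 3 under quantile normalization and 3 with both legs of a PBS-only mouse averaged, against 5, and 3 to 5 with any 1 library left out. Between HRS-MBP and HRS legs it was 0 to 1 with 1 library left out, and 1 without both legs of m866 (an alternative added after seeing the data, as was leaving out m868), the gene being *Nr4a1*. Over all genes, a filter at a mean of 5 gave 2510 calls for HRS against contralateral legs, 2650 against PBS-only mice and 13 for HRS-MBP against HRS legs, with fewer genes tested; it gave no value for members with a mean under 5. For HRS-MBP against HRS legs, calls over all genes were 4 with only these groups in the fit, 49 with PBS-only legs averaged, 48 without m868, 208 without m866, and 25 to 590 with 1 library left out (25 without HRS-MBP m861, 590 without HRS leg m864). For contralateral PBS legs against PBS-only mice they were 0 with the filter at 5, with no filter, with a smaller pseudocount, with legs averaged, with only these groups in the fit or without m868, 2 under quantile normalization, 3 without m866, and 0 to 2 with 1 library left out.

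Signs changed for values that had not passed the test. Under quantile normalization *Jun* was at 0.057 and *Nr4a3* at -0.27 for HRS against contralateral legs and PBS-only mice, respectively, *Fosb* at -0.12 and *Nr4a3* at -0.29 in HRS-MBP against PBS-only mice, and *Nr4a3* at -0.017 for HRS-MBP against HRS legs. Median-ratio rescaling put *Jun* at 0.030 and *Nr4a2* at 0.025 there, and without both legs of m866 *Egr2* was at -0.11 and *Jun* at 0.078. With 1 library left out, the ranges for HRS against contralateral legs were -0.22 to 0.048 (*Jun*) and -0.20 to 0.076 (*Nr4a3*), and for HRS-MBP against PBS-only mice -0.042 to 0.95 (*Fosb*). For HRS-MBP against HRS legs they were -0.39 to 0.0037 (*Egr1*), -0.11 to 0.38 (*Egr2*), -0.15 to 0.71 (*Fos*), -0.66 to 0.33 (*Fosb*), -0.24 to 0.079 (*Ier2*), -0.22 to 0.15 (*Jun*), -0.12 to 0.077 (*Nr4a2*) and -0.20 to 0.23 (*Nr4a3*). The cause of these changes was not tested. Against PBS-only mice, *Nr4a2* in HRS legs was at -0.99 with a pseudocount of 2 and *Ier2* at 0.92, both under the size threshold. The shallow right leg of m868 limits the scarcest genes most, since 3 reads are worth 0.364 normalized counts there.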

Other observations

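The genes that ran most like *Fos* over the 16 libraries were *Plk3*, a stress-responsive polo-like kinase (Pearson's r = 0.88), *Med23*, a Mediator subunit that relays MAP kinase signals (0.84), *Nceh1* (0.81), the member *Fosb* (0.81) and *Gm17045* (0.80). *Plk3* averaged 4.86 normalized counts in HRS legs, 1.71 in contralateral PBS legs, 3.01 in PBS-only mice and 6.04 in HRS-MBP, so that, as for *Fos*, the contralateral legs held the lowest mean. After group means were subtracted, *Plk3* was again first (0.81), followed by *Rttn* (0.80), *Zfp110* (0.79), *Klf11* (0.76) and *Rac3* (0.75).

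For *Nr4a2* the most similar genes were different once group means had been subtracted. They included *Bcr* (0.83), *Ephb6* (0.82), *Letmd1* (0.81) and *Reln* (0.80). None of these was highest in the PBS-only mice, where *Bcr* averaged 10.1 against 15.8 in HRS legs. All of these are the top values among 16414 genes over 16 libraries that share animals and groups, and are given as descriptions.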
